A study of Mus musculus with 2 samples.

Results

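The distal imprinted domain of mouse chromosome 7 was examined for CTCF binding over 1.4 Mb, from 142200000 to 143600000 in build mm8. The window is defined by position, and it was picked with earlier results of these data known. It held 2544 of the 2370818 reads of the CTCF chromatin immunoprecipitation (ChIP) library and 3373 of the 4686960 reads of the whole-cell extract, which is sonicated chromatin without immunoprecipitation. Of the 34781 CTCF-enriched regions called over the genome, 51 lay in it. Its 10 listed genes are, in the order of the RefSeq table, H19, Igf2, Ins2, Ascl2, Cd81, Kcnq1, Kcnq1ot1, Cdkn1c, Slc22a18 and Phlda2. H19 is taken to lie near 142.38 Mb. No mm8 gene annotation was used here, so the other genes are given by their order alone and no region is assigned to a gene.

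Both libraries came from V6.5, a male mouse embryonic stem cell line of genotype 129SvJaexC57BL/6 at passages 10 to 15. The cells grew on irradiated feeder fibroblasts and were then carried over gelatin-coated plates to remove them. Each group is 1 library of amplified DNA with no treatment, knockout or time course, and nothing tells whether both came from the same culture. There was no replicate, so each difference is between these 2 libraries, and intervals (95%, exact) cover counting error only.

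Genomic imprinting is the expression of a gene from the copy of a single parent. In this domain H19, a long non-coding RNA, is expressed from the maternal chromosome and Igf2, a fetal growth factor, from the paternal chromosome. The imprinting control region beside H19 is a textbook case of a CTCF insulator: CTCF binds the unmethylated maternal copy and keeps Igf2 from enhancers that lie beyond H19, while methylation of the paternal copy prevents binding. The neighbouring cluster is governed by Kcnq1ot1, a non-coding RNA that starts inside the potassium channel gene Kcnq1 and silences genes on the paternal chromosome in cis. Its targets include Cdkn1c, an inhibitor of cyclin-dependent kinases, Phlda2, which restrains placental growth, Slc22a18, a membrane transporter, and Ascl2, a transcription factor of the trophoblast lineage. Ins2 encodes an insulin and Cd81 a tetraspanin of the cell surface. The deposited reads carry positions and no base letters, so maternal and paternal copies could not be told apart.

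The sequence available for these genes was the RefSeq promoter set of build GRCm38.p6, which spans 250 bases before to 50 bases after a start site. It held 9 promoters of 6 of the 10 genes (Igf2, Ascl2, Cd81, Kcnq1ot1, Slc22a18 and Phlda2), and H19, Ins2, Kcnq1 and Cdkn1c were not matched. These promoters were searched on both strands for 3 words taken from the core of the known CTCF motif: AGGGGGCG, AGGTGGCG and AGNNGGCGC. Of 32851 promoters in the set, 6.07%, 1.29% and 7.23% held these words, and 12.1% held any of them. In the domain, 2 of the 9 held a word, both of Igf2. An excerpt of each is shown, with the word in capitals, because among these 9 promoters these 2 alone held one of the searched words. The first excerpt lies on the minus strand at chr7:142658846-142658933 (GRCm38.p6), from 129 to 42 bases before the start site. It holds CGCCACCT, the reverse complement of AGGTGGCG. The second excerpt lies on the minus strand at chr7:142657537-142657639 (GRCm38.p6), from 143 to 41 bases before the start site. It holds AGGGGGCG at 2 places.
Igf2 promoter with 1 word: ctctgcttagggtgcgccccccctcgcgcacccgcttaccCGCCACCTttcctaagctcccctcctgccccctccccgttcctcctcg
Igf2 promoter with 2 words: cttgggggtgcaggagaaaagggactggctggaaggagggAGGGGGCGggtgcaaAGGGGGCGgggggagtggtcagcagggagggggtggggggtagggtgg
A match is a description of the letters and not a binding site. Positions in GRCm38.p6 cannot be set beside the mm8 positions of the reads, so no read count is given for these promoters.

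Across the whole domain the ChIP library held 1.82 reads per kb and the extract 2.41 reads per kb. Scaled by library totals, ChIP reads were 1.49 times the extract reads (1.42 to 1.57), against 1.14 times (1.135 to 1.15) for chromosome 7 as a whole. Both strands were about equally present, with 1258 plus-strand and 1286 minus-strand ChIP reads. Both extract lanes contributed, with 1886 and 1487 reads. The ratio depends on the scaling: it was 3.06 with the extract scaled by 10-kb bins of low ChIP count, which may be biased because those bins were selected for few ChIP reads.

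The ChIP reads were gathered in few places. In 1-kb bins, after each 5′ end was moved 102 bp towards 3′, 580 of the 1400 bins (41.4%) held no ChIP read and the median bin held 1. The highest bin held 99 ChIP reads, whereas no bin held more than 9 extract reads. The expected count of a bin was the larger of the genome average and the scaled extract. A bin was called where its ChIP reads numbered at least 8 and were at least 5 times that. By this rule 53 of the 1273 bins with a read were called (4.16%), against 1.57% of such bins over the genome and 2.12% over chromosome 7. The called bins held 46.8% of the domain's ChIP reads and 4.68% of its extract reads. With the libraries exchanged, 0 bins of the domain were called. That run asked for at least 5 times the extract's genome average of 1.78 reads per kb, and no bin held more than 9 extract reads. Hardly any bin could have passed, so this outcome was largely fixed by the rule.

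**Figure D1:**
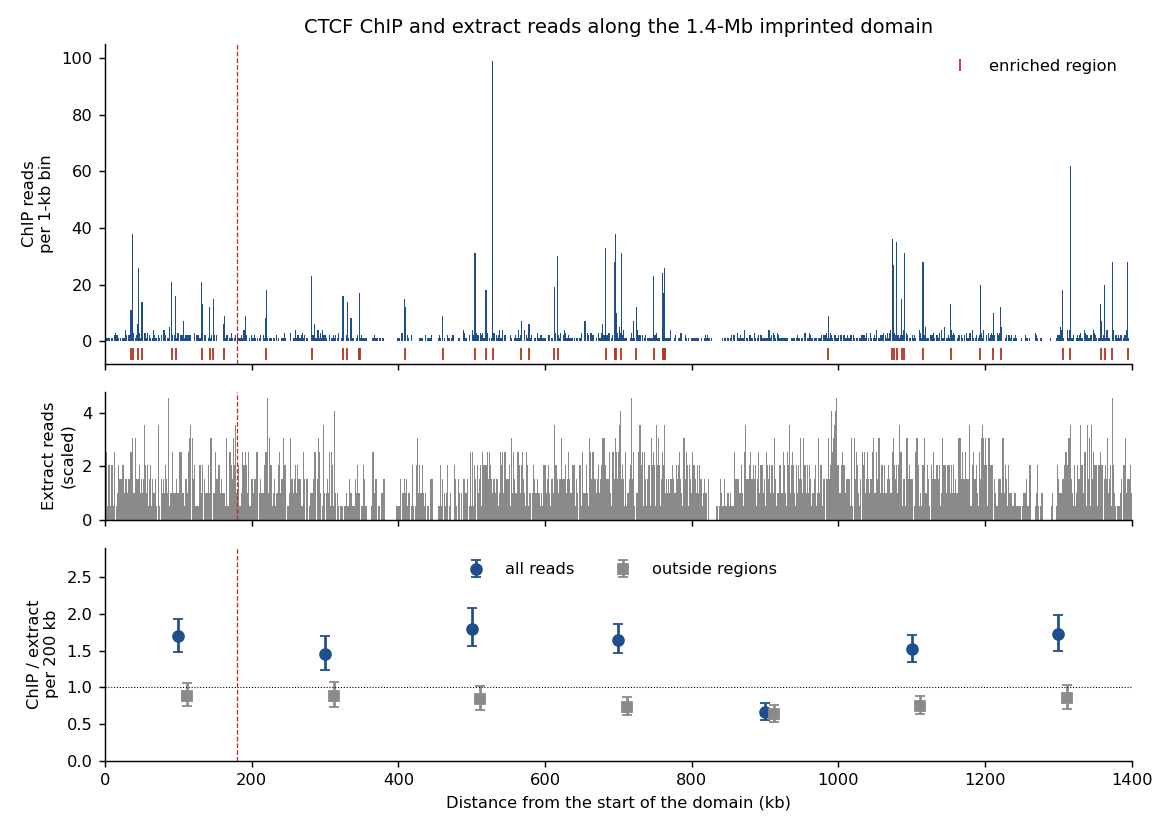
Reads along the domain, with distance from its start in kb on the horizontal axis. The panels show ChIP reads per 1-kb bin with red ticks at the 51 enriched regions, extract reads per bin scaled by library totals, and the ChIP-to-extract ratio per 200-kb part with 95% exact intervals for all reads (circles) and for reads outside regions (squares); the dashed line marks the approximate H19 position. The fifth part from the left is the only part with a ratio below 1 for all reads, at 0.662.

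Enriched regions were called in 200-bp windows with an exact Poisson test against the extract. A window passed with a p under 0.001, after Benjamini-Hochberg adjustment across all tested windows, and a 5-fold excess of ChIP reads. In the domain 306 of 5291 windows with a ChIP read passed (5.78%), against 2.95% over the genome. They formed 51 regions, or 36.4 per Mb (27.1 to 47.9), while the rest of chromosome 7 held 16.4 per Mb (15.8 to 17.1). The density was thus 2.22 times that of the rest of the chromosome (1.65 to 2.93). The rest of the chromosome was taken at its full length. That length includes stretches with few extract reads, among them the 16 windows of 1.4 Mb left out of the ranking below, which raises this ratio. Extract reads were also denser in the domain, at 2.41 against 1.70 per kb over that full length, a ratio of 1.42 (1.37 to 1.47). The domain held 3373 extract reads, against a median of 2911 in the 87 windows of 1.4 Mb that were ranked. The windows adjoining it held more, 3657 and 3887. Per 1000 extract reads the domain held 15.1 regions and the rest of chromosome 7 held 9.67, a ratio of 1.56 (1.16 to 2.06). How far the denser extract reads bear on the count of regions was not tested. With the libraries exchanged, 0 regions were called in the domain and 30 over the genome.

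The domain's regions had the same median length as those elsewhere and somewhat more reads at the median, a difference that was not tested. The median region held 19 ChIP reads (quartiles 13.5 and 28). It held 16 (9 and 27) on the rest of chromosome 7 and 15 (9 and 25) on the other chromosomes. Weak regions of under 10 reads made up 8 of 51 (15.7%), against 26.5% and 27.7%. Regions of at least 40 reads made up 3 of 51 (5.88%), against 6.74% and 6.35%. The median length was 450 bp in each of these sets. The extract held no read in 16 of the 51 regions (31.4%), against 30% of the rest of chromosome 7. Of the 35 with an extract read, none had a ChIP-to-extract interval that reached 1. The calling rule asked for a 5-fold ChIP excess, so this outcome was largely fixed by it. Together the regions held 44.6% of the domain's ChIP reads (42.6 to 46.5), a share that was 32.7% on chromosome 7 and 27.4% over the genome, and 2.37% of its extract reads. The regions were called on these same reads, so the ratios and shares are descriptions.

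**Figure D2:**
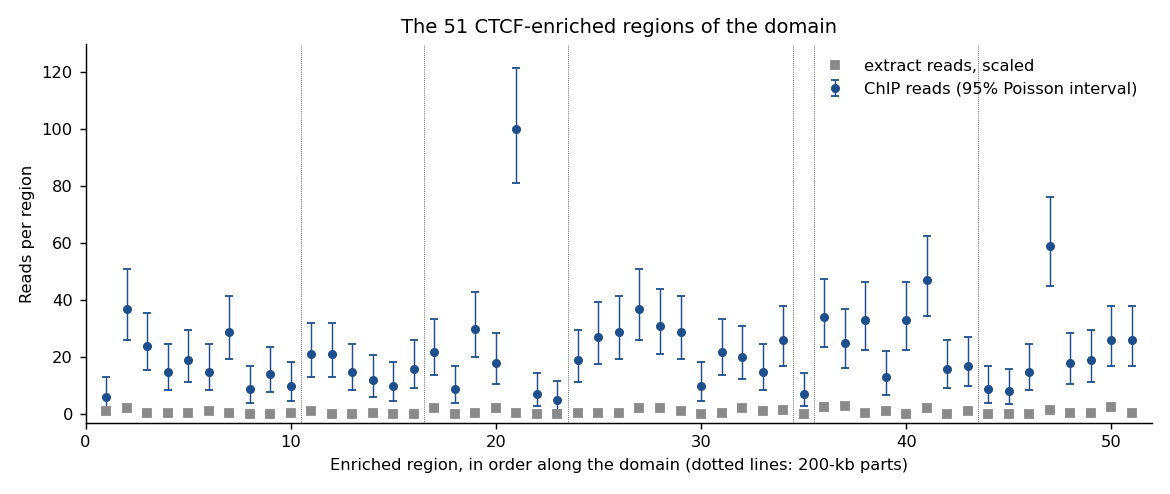
ChIP reads in each of the 51 enriched regions, in order along the domain (circles, 95% Poisson intervals), with scaled extract reads (squares). The region with 100 ChIP reads stands above all others, followed by those with 59 and 47.

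The strongest region stood apart from the others. It lay from 142728501 to 142729150, 348.9 kb from the approximate H19 position, and held 100 ChIP reads (42.2 RPM, 34.3 to 51.3) and 1 extract read. The ratio was 198-fold (34.7 to 7886), with an upper bound set by the single extract read. Its interval of 81.4 to 121.6 reads did not overlap that of the next region. The region was picked as the highest of the 51 by this same count, which the interval does not take into account. It ranked 2 among the 2411 regions of chromosome 7 and 39 among the 34781 of the genome. Without its reads the ratio of the whole domain was 1.43 in place of 1.49.

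Within it the reads converged on a point. In steps of 100 bp from its start it held 2, 6, 23, 49, 19 and 1 ChIP reads, followed by 0 in the last 50 bp. The 58 plus-strand reads began a median of 116 bp before the summit and the 42 minus-strand reads a median of 89 bp after it, an offset of 205 bp. Plus-strand ends before and minus-strand ends after a summit are what fragments read from either end give. However, reads were assigned to regions after the 102-bp move, while the offset was taken from unmoved ends. Reads spread evenly over a region would therefore also be offset. Counted without the move, plus-strand ends were most frequent at -75 bp from the summit (16 per 50 bp). Minus-strand ends were most frequent at 75 bp (12). How far the move sets the size of this offset and of those below was not tested, and the offset is not a test of binding. Among the 100-bp steps, the highest was that from 142728801 to 142728900.

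The second region spanned 143516001 to 143516550. There were 59 ChIP reads (44.9 to 76.1) and 3 extract reads in it, a 38.9-fold ratio (12.7 to 194). It ranked 31 on chromosome 7 and 439 in the genome. Its steps of 100 bp held 1, 9, 30, 17 and 2 ChIP reads, with 0 in the last 50 bp, and its strands were offset by 201.5 bp. It too had a single narrow summit.

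The third differed in shape. It ran from 143315201 to 143316500, and at 1300 bp it was the longest region of the domain. It held 47 ChIP reads (34.5 to 62.5) and 4 extract reads, a 23.2-fold ratio (8.49 to 88.8). Its reads formed a pair of clusters: the step from 143315401 held 10 reads, the steps from 143315801 to 143316200 held 1 or 2 each, and those from 143316201 and 143316301 held 8 and 6. The median strand offset over the whole region, -15.5 bp, therefore mixes the clusters. Across all 51 regions the offset had a median of 199 bp and reached 330 bp, and reads of both strands were present in each. Because reads were assigned to regions after the 102-bp move, the move can contribute to that median, and how far it does was not tested.

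**Figure D3:**
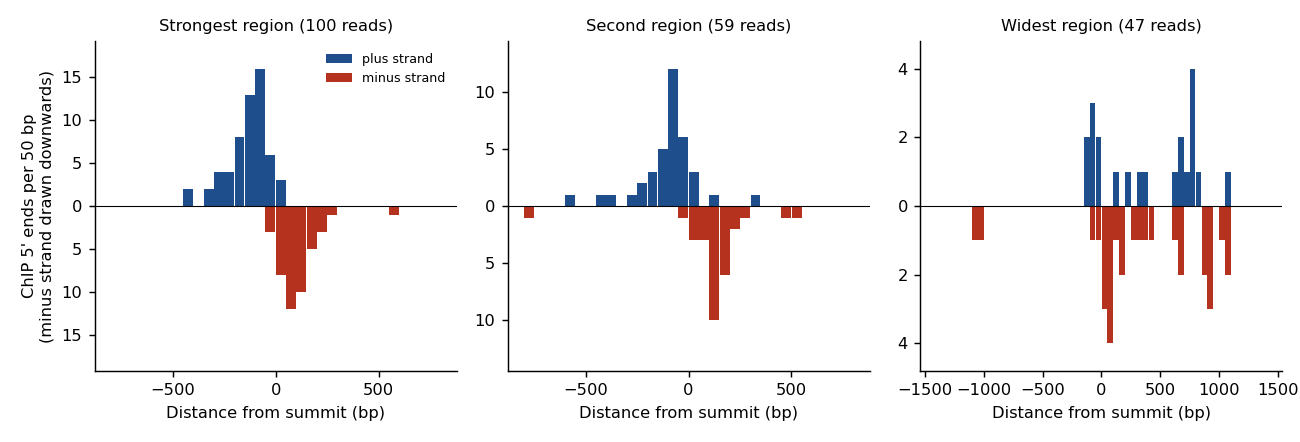
5′ ends of ChIP reads per 50 bp around the summit of the strongest, the second and the widest region, with plus-strand ends drawn upwards and minus-strand ends downwards. The strongest and second regions show a single plus-strand peak before a single minus-strand peak, and the widest region shows a pair of such clusters.

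The nearest surroundings of the H19 position were not among the strong places. Within 10 kb on either side of 142.38 Mb there were 21 ChIP and 61 extract reads, a ratio of 0.681 (0.394 to 1.13), and no enriched region. Within 20 kb there were 60 and 103 reads, a ratio of 1.15 (0.823 to 1.598), and 1 region. Within 50 kb there were 186 and 257 reads, a ratio of 1.43 (1.18 to 1.735), and 5 regions. The position is approximate, and the ratio rose with the width counted. Within 10 kb the extract had 3.05 reads per kb, against 2.41 over the domain. The nearest region on the lower side (142361851 to 142362200) lay 18 kb away, with 10 ChIP reads and 1 extract read. On the upper side the nearest (142419901 to 142420350) lay 40.15 kb away, with 21 ChIP and 2 extract reads. The control region of H19 is known to lie close to the gene, and its exact mm8 position was not used here. These neighbours and the weak places named next were picked after their values were seen.

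A few more ChIP reads lay on the upper side. The bins starting at 142389001, 142390001 and 142391001 held 4, 3 and 9 ChIP reads with 4, 2 and 5 extract reads, or 1.98, 2.97 and 3.56 times the expected count, and none was called. At an adjusted p under 0.05, 2 more regions were called there, from 142389601 to 142389800 and from 142391301 to 142391500, 9.7 and 11.4 kb from the H19 position. Each held 4 ChIP reads and 1 extract read. They were also called with the genome average as the only expected count, and not by the rule used for the 51 regions.

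**Figure D4:**
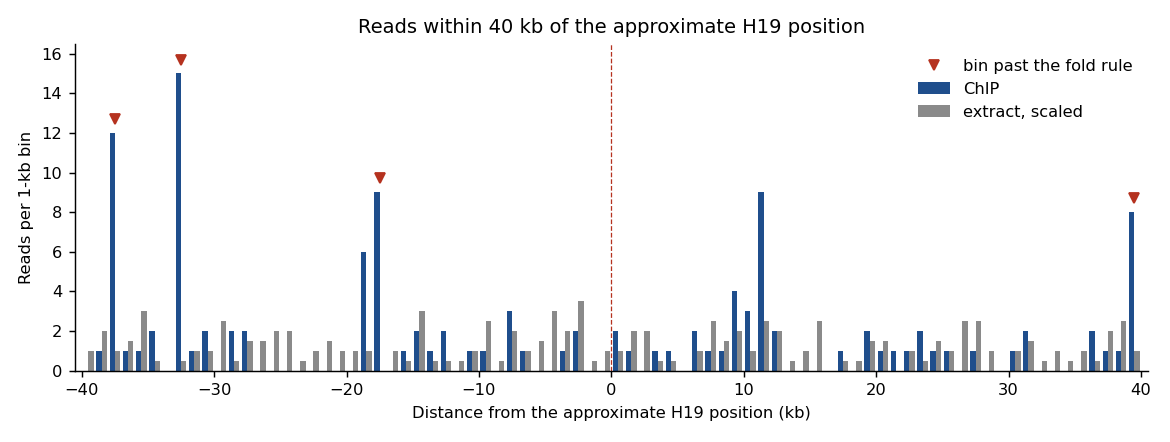
ChIP reads and scaled extract reads per 1-kb bin within 40 kb of the approximate H19 position, which is marked by the dashed line, with triangles over called bins. The bins with 12, 15 and 9 reads on the lower side and 8 reads on the upper side were called, while the bin with 9 reads at 11.5 kb was not.

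The 200-kb part that holds the H19 position, from 142200001 to 142400000, contained 10 regions. Its strongest (142237551 to 142238150) had 37 ChIP reads (26.1 to 51) and 4 extract reads, an 18.3-fold ratio (6.57 to 70.6). It lay 142.2 kb from the H19 position, so the strongest region of this part is not beside the gene. The regions at 142331701 to 142332250 and 142244901 to 142245400 had 29 and 24 ChIP reads and 1 extract read apiece. The first 4 regions of the domain lay within 14.7 kb of one another, from 142235301 to 142250350, and included a weak one of 6 ChIP and 2 extract reads.

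The next part, up to 142600000, had 6 regions and no strong one. The most reads, 21, fell in the region from 142419901 and in that from 142481451 to 142481950. The latter held no extract read. It had 13.8 times a floor of 3 extract reads, with an exact lower bound of 10.3 for its ratio. The remaining 4 held 10 to 16 ChIP reads and at most 1 extract read.

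The part from 142600001 to 142800000 had 7 regions and the widest spread of strengths. Beside the region of 100 reads, the one at 142704001 to 142704500 had 30 ChIP reads against 1 extract read (59.3-fold, 9.86 to 2420), and the one at 142608801 to 142609250 had 22 against 4. At the other end was the weakest region of the domain, from 142778551 to 142778750, with 5 ChIP reads, no extract read and an adjusted p of 0.000143 in the exact Poisson test. It had 3.30 times a floor of 3 extract reads, and the exact lower bound of its ratio was 1.81.

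The part from 142800001 to 143000000 was the richest, with 11 regions. The closest neighbours of the domain lay here, a pair with summits 0.85 kb apart (142895651 to 142896200 and 142896601 to 142897200). Their ChIP reads numbered 37 and 31, against 4 extract reads apiece. At 142904051 to 142904550 there were 29 ChIP and 2 extract reads, and at 142882451 to 142883000 there were 29 and 1. Slightly lower were 142817351 to 142817850 (27 ChIP, 1 extract), 142963151 to 142963600 (26 and 3) and 142948101 to 142948650 (22 and 1). No region of this part exceeded 37 reads.

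After 142963600 the regions nearly ceased. The longest gap between neighbouring summits, 222.9 kb, ran from 142963400 to 143186350, and the next, 87.2 kb, from there to 143273500. Of the 2410 neighbouring pairs of chromosome 7, 107 (4.44%) were at least as far apart as the longest gap. The part from 143000001 to 143200000 held 167 ChIP and 499 extract reads, a ratio of 0.662 (0.552 to 0.790). Its single region, from 143186251 to 143186450, held 7 ChIP reads and no extract read, and 0 of its bins were called. The other 6 parts had ratios of 1.45 to 1.80, and the highest bound of the sparse part lay under the lowest bound of each of them. With the extract scaled by bins of low ChIP count its ratio was 1.36 in place of 0.662, above 1 but still the lowest of the 7 parts.

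The sparse part was also at the low end outside the regions. Outside regions and their 1-kb flanks its ratio was 0.632 (0.525 to 0.758), and in the other parts it was 0.734 to 0.888. The lower bounds of the other parts were 0.620 to 0.744, so each interval overlapped that of the sparse part. Over chromosome 7 the ratio outside regions was 0.7345 (0.729 to 0.740), within the interval of the sparse part. The difference outside regions was not tested. Reads outside regions are not taken here as CTCF binding. For called regions, fewer cells with CTCF bound and less CTCF per cell cannot be told apart in bulk chromatin. Regions took 4.19% of the ChIP reads of the sparse part and 35.9% to 52.6% in the others.

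Regions resumed as a tight group, picked out after its values were seen. From 143273201 to 143290350, 5 regions lay within 16.6 kb with 138 ChIP and 14 extract reads in all. Its members at 143273201 to 143273800 and 143279301 to 143279800 had 34 and 33 ChIP reads, with 5 and 1 extract reads. That at 143289851 to 143290350 had 33 and no extract read. It had 21.8 times a floor of 3 extract reads, with an exact lower bound of 16.7 for its ratio. The one at 143275651 to 143276100 had 25 ChIP reads and 6 extract reads, the most extract reads of any region of the domain (8.24-fold, 3.30 to 24.6).

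The last part, from 143400001 to 143600000, had 8 regions around the second-strongest. Those at 143573201 to 143573650 and 143594301 to 143594850 had 26 ChIP reads apiece, against 5 and 1 extract reads. An 84.05-kb gap without a region separated 143421750 from 143505800. The first summits outside the domain were at 142143825, with 27 ChIP reads, and at 143602650, with 14.

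The spacing of regions varied widely. Of 50 neighbouring pairs, 19 (38%) had summits within 10 kb, against 32.5% on chromosome 7 and 28.8% over the genome, and the difference was not tested. The median gap was 13.9 kb, against 19.8 kb on the rest of chromosome 7 and 25 kb on other chromosomes. At the same time 8 pairs were over 50 kb apart. The 10 strongest regions held 38.9% of all region reads.

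Set among 1.4-Mb windows of chromosome 7, the domain was in the upper part of the range without leading it. Windows were laid end to end from the domain outwards, and 16 with under 50% of the median extract reads were left out, which left 87. By ChIP-to-extract ratio the domain ranked 11 of 87, and 11 to 14 at the bounds of its own interval. The windows ranged from 0.627 to 2.18 with a median of 1.02. With 51 regions it ranked 12, together with 2 other windows at the same count, in a range of 0 to 88 with a median of 23. By called bins it ranked 7, and by the reads of its strongest region 2. Its extract reads also ranked high, at 19 of 87.

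**Figure D5:**
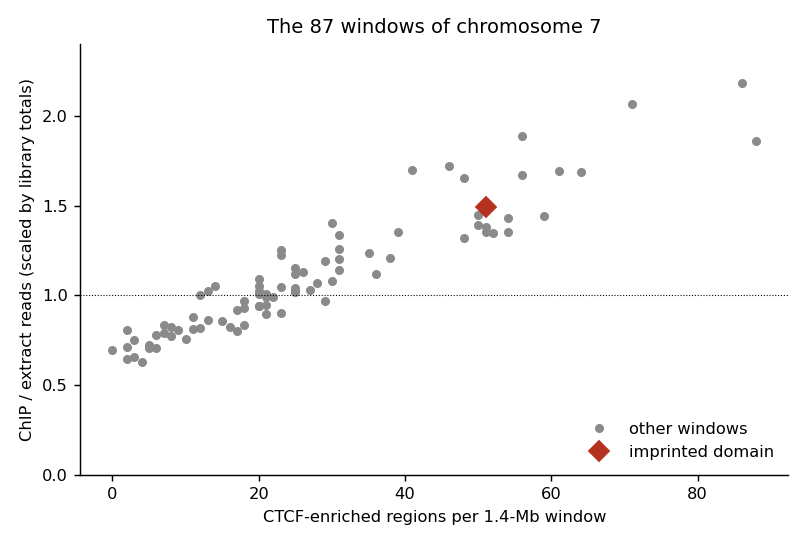
The 87 windows of 1.4 Mb on chromosome 7, by number of enriched regions (horizontal axis) and ChIP-to-extract ratio scaled by library totals (vertical axis), with the imprinted domain as a red diamond at 51 regions and a ratio of 1.49. Ratios tend to be higher in windows with more regions, with exceptions, and the domain lies towards the upper right without being the extreme. Both axes come from the same reads, so this tendency is partly built in.

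The adjoining windows held nearly as many regions. The one from 140800001 to 142200000 held 50 regions with a median of 17 reads and a ratio of 1.39 (1.33 to 1.47), an interval that overlaps that of the domain. The one from 143600001 to 145000000 held 48 regions with a median of 16 and a ratio of 1.32 (1.253 to 1.385), below the domain's interval. The most regions lay in 44200001 to 45600000 (88), 17600001 to 19000000 (86) and 14800001 to 16200000 (71). The fewest lay in 52600001 to 54000000 (0), followed by 3 windows tied at 2: 54000001 to 55400000, 58200001 to 59600000 and 76400001 to 77800000.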

How the data were processed

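The authors deposited 1 line per aligned 36-base read, with chromosome, start, end, strand and read name. Build mm8 is given per the submitters' processing notes; the aligner is not given in the sources used here. Per the labels' protocols, DNA was amplified by 15 PCR cycles and selected at about 250 bp with adapters. No position and strand was repeated within a library, so PCR copies are unknown and counts have a ceiling.

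Start positions were taken as 0-based and are printed 1-based. Reads on chromosomes 1 to 19, X and Y were counted, and the extract was scaled by the ratio of totals (0.506). Windows of 200 bp, at 50-bp steps, were tested genome-wide against a Poisson expectation. That expectation took whichever was highest: the genome average or the scaled extract within 1, 5 or 10 kb. Neighbouring passing windows within 200 bp were joined. The code was tested on simulated data. Intervals are exact (Poisson, Clopper-Pearson, conditional binomial). Named regions are the 20 with the most ChIP reads, the strongest of each 200-kb part and the weakest; chromosome 7 windows named are the 3 with the most and the 3 with the fewest regions, ties included. Others were named after their values were seen. The domain, lists and rules were chosen with earlier results of these data known. Python 3.11.15, numpy 2.4.6 and scipy 1.17.1 were used.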

Additional observations from a re-analysis of the deposited data

How the results depend on the processing

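Of the 44 alternatives run, 34 stayed within the counting interval or within 1.5 times the count. Scaling the extract by 10-kb bins of low ChIP count raised the domain's ChIP-to-extract ratio from 1.49 to 3.06, and those of the 7 parts to 3.48, 2.97, 3.695, 3.38, 1.36, 3.11 and 3.54 in order; its rank among windows was 11 under both. The share of ChIP reads in regions was 48.8% at an adjusted p under 0.05 and 42.4% under 1e-06. The count of regions lay between 48 (1e-06) and 68 (0.05), and that of called bins between 36 (fold of 10) and 61 (5 reads). Of 51 regions, 46 were called in all 12 settings of the caller. Those starting at 142235301, 142778551 and 143186251 were each lost in 3 and those at 142767151 and 143421601 in 1; all 5 hold 5 to 8 ChIP reads. Without the region at 143186251 the longest gap would be 310.1 kb. With a single library per group, neither a paired fit nor leaving out a replicate was run. Depth limits the weak places most, and ratios over 1 extract read have wide intervals.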

Other observations

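Some stretches of the domain held no read of either library: 17.2 kb from 142580598 to 142597820, 10.8 kb from 143478911 to 143489748 and 7.94 kb from 143026810 to 143034751. In total 127 of the 1400 bins held no read of either library, some of them single bins between covered ones.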
